A study of Mus musculus with 36 samples.

Results

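In a mouse pre-B cell model of Ikaros induction, 91 of 12762 measured genes were lower in the Ikaros line than in the control line at 2 h and higher at 24 h. The genes were chosen on the measured values. A gene entered when its mean over all 36 libraries was at least 9.5 on the log2 scale, its Ikaros minus control difference was at most -0.6 at 2 h, and the same difference was at least 0.6 at 24 h. Of the 12762 genes, 9584 passed the level alone, and 586 of those met the 2 h threshold. Among these 586 genes, 310 were still lower by at least 0.6 at 24 h, 185 lay between the thresholds, and 91 had crossed to the other side. The differences at 2 h and at 24 h therefore describe the choice and carry no test here, whereas the libraries of 0, 6, 12 and 18 h took no part in it beyond the mean level.

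All libraries came from B3, an established mouse pre-B cell line. The Ikaros line was transduced with a mouse stem cell virus vector that makes a drug-inducible Ikaros, an HA-tagged protein fused to ERt2, and also GFP from the same transcript. The control line has the same vector lacking Ikaros, and GFP-positive cells of both lines were sorted. The drug 4-hydroxy-tamoxifen (4-OHT) was given to both lines at 0.5 uM for 2, 6, 12, 18 or 24 h, with 3 libraries for each line and time. The labels list the drug for 0 h also, while the methods describe the 0 h cells as drug-free and collected on other occasions. The line and its vector insertions cannot be told apart, because 1 line of each kind was used, and a comparison with 0 h also compares occasions. Libraries of a batch came from cells thawed and expanded together, so values of that batch at different times are not wholly independent. The cells were measured in bulk, where fewer cells of a kind and less RNA per cell cannot be told apart.

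Ikaros is a zinc finger transcription factor that lymphoid cells need. In pre-B cells it is known both to silence genes of the dividing stage and to accompany the activation of genes of the small, resting stage. The ERt2 domain keeps the fusion protein in the cytoplasm until 4-OHT binds, after which the protein enters the nucleus. Small pre-B cells display the alpha chain of the interleukin 2 receptor, dampen PI3K signalling and change their adhesion and homing receptors. Some genes of these kinds are among the 91. Of 18 measured genes in a late pre-B stage list, 1, Il2ra, was among them, where 91 of 12762 genes were chosen in all. No gene was from lists of 27 measured pre-B receptor signalling genes and 29 measured cell cycle exit genes. At the share of all genes, lists of this size hold few or no such genes, so these absences say little. The same share, 91 of 12762, stands beside the members counted in every list below.

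Ikzf1, which encodes Ikaros, was higher in the Ikaros line by 5.19 to 6.26 on the log2 scale at all 6 times, which checks the line labels. Of 14 pre-B markers looked for, 12 were measured, and the log2 of their summed level was 19.71 to 19.90 over the control groups and 19.42 to 20.28 over the Ikaros groups. That sum hides moves in both directions. At 24 h the difference was -3.96 for Igll1 and -3.42 for Vpreb1, but 5.19 for Rag1, 4.14 for Blnk and 2.29 for Cd79b. Cd79a, with the highest mean level of these markers (18.38), read -0.15. Among T cell markers 4 of 10 were measured, with summed levels of 13.18 to 13.44 in control and 12.93 to 14.16 in Ikaros groups, and the defining genes Cd3d, Cd3e, Cd3g, Cd4 and Cd8a were not among the table's genes. Among myeloid markers 3 of 11 were measured, at 9.82 to 11.01 in control and 10.78 to 11.36 in Ikaros groups, without Csf1r, Mpo or Elane. Within that sum Itgam, an integrin chain, went from a difference of -0.78 at 0 h to 4.52 at 18 h, and Lyz2, a lysozyme, from 2.94 to -2.06. Their mean levels were low, at 6.30 and 6.66. Cd68, the third marker, had the highest mean level (10.38) and went from 0.54 to -0.08. Vim, measured of 8 stromal markers, read 14.63 to 15.03 in control and 15.12 to 15.84 in Ikaros groups. The part of other cell types in the results was not tested.

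The promoters of 4 of the genes with the widest swing from 2 h to 24 h are shown. That swing was favoured by the choice, and the 4 genes did not turn at the same time. The window of Gm3625, a gene that also had a wide swing, held no match and is not shown. Each window holds 250 bases before and 50 bases after the RefSeq start on GRCm38.p6, read 5′ to 3′. Capitals mark GGGAA, the core of the Ikaros recognition sequence, or its reverse complement TTCCC.
Epsti1, chr14:77903989-77904288, plus strand: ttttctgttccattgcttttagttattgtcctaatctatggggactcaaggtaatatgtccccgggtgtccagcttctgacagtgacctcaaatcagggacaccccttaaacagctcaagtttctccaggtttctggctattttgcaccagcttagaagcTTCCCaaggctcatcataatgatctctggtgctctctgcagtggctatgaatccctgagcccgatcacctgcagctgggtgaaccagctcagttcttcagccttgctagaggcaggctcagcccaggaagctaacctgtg
Pik3ip1, chr11:3330481-3330780, plus strand: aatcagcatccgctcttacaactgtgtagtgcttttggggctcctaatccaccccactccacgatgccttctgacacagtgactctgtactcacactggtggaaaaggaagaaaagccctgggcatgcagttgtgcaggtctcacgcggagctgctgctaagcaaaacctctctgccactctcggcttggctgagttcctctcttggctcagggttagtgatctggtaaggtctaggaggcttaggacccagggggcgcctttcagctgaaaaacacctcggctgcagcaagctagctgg
Il2ra, chr2:11642542-11642841, plus strand: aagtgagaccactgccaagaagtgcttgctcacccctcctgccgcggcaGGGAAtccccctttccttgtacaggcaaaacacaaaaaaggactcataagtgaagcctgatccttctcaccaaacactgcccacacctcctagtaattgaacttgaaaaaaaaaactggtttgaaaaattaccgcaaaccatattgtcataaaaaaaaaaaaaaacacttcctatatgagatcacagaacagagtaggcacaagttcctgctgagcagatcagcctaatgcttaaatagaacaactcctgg
Zc3h12d, chr10:7832220-7832519, plus strand: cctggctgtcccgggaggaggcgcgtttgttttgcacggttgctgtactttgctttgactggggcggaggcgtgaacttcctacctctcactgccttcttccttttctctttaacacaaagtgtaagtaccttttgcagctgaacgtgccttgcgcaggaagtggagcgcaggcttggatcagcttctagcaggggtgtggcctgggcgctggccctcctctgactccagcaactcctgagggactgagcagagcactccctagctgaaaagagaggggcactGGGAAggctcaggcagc
The Epsti1 window holds TTCCC 90 bases before the start, and the Il2ra window holds GGGAA 201 bases before it. The Zc3h12d window has its match within the 50 bases after the start, and no match lies in the Pik3ip1 window. RefSeq windows were found for 58 of the 91 genes, 86 windows in all. GGGAA on either strand was in 61 of them, or 70.9%, beside 64.5% of the windows of all table genes and 62.7% of all 32851 promoters of the same length. The longer TGGGAA, which contains GGGAA, was in 23.3% of the windows of the 91 genes, in 22.5% of those of all table genes and in 25.6% of all promoters.

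The median difference of the 91 genes ran from -0.77 at 2 h to 1.13 at 24 h, both fixed by the rule. The rule read 0, 6, 12 and 18 h only through the mean level. At these times the median was -0.23, -0.28, 0.31 and 1.05, where the medians over all 12762 genes lay between -0.03 and -0.01. The median change from 2 h to 24 h was 2.02 in the Ikaros line and -0.19 in the control line, both directions favoured by the choice. In the control line 72 of the 91 genes stayed within 0.6 of their own 0 h level at both 2 h and 24 h. The control line fell by at least 0.6 from 0 h to 24 h in 15 genes, among them Gas7, Mir425 and Terc. From 0 h to 2 h it rose by at least 0.6 in 4 genes. In such genes the control line moved too, but the choice favoured control values high at 2 h and low at 24 h. The 0 h cells were also of other occasions, so these counts are a description. The shares of all genes for these counts are not given here. The deposited values placed Pcdhb17, Atg14 and Nfkb2 just inside the 2 h threshold with differences of -0.60, -0.61 and -0.61, and Fli1, Zfp710 and Col4a3bp just outside it with -0.60, -0.59 and -0.59. Just inside the 24 h threshold were Il17ra, Golph3 and Kctd12 with 0.60, 0.62 and 0.63, and just outside were Ttc9c, Cd47 and Trim16 with 0.59, 0.58 and 0.56. The mean level had Pcdhb17, Qrfp and Abhd15 inside at 9.54, 9.66 and 9.69, and Acpp, Gm13071 and Fam78a outside at 9.48, 9.47 and 9.44.

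**Figure D1:**
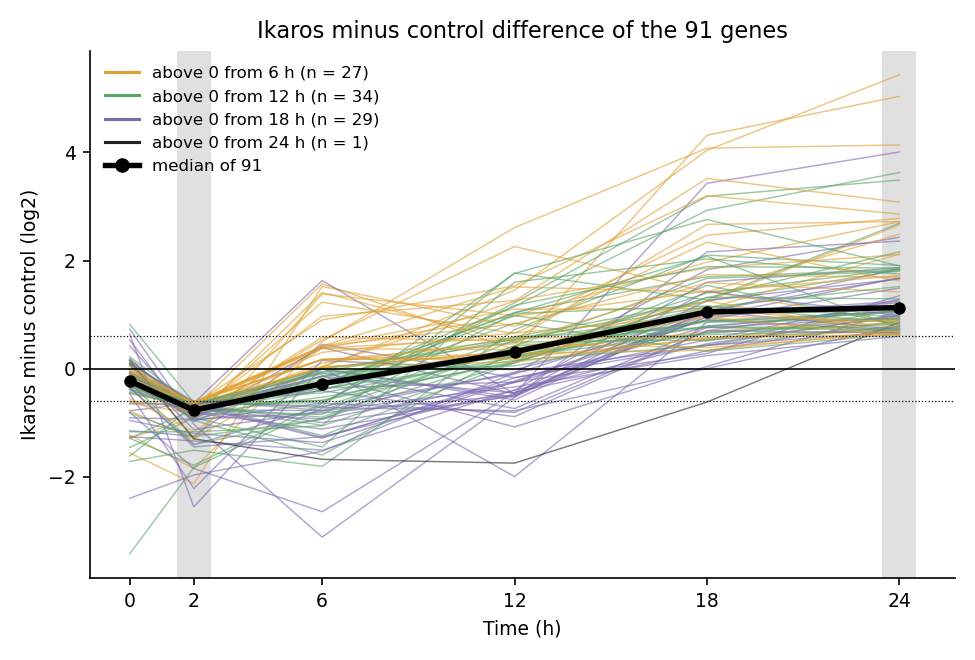
Ikaros minus control difference (log2, y axis) of each of the 91 genes against time (h, x axis), one thin line per gene coloured by the time from which its difference stayed above 0, with the median as a thick line. Grey bands mark 2 h and 24 h, the times the choice was made on, and dotted lines mark -0.6 and 0.6. The median passes 0 between 6 h (-0.28) and 12 h (0.31) and is already 1.05 at 18 h.

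A low 2 h value in the Ikaros line was favoured by the choice, so its change from 0 h to 2 h is given as a description. The Ikaros line fell by at least 0.6 in 45 of the 91 genes. In 31 others it was lower by less than that, down to almost no change in Pcyt1a and Il2ra, and in 15 it was not lower. In 23 genes the line was already lower than control by at least 0.6 at 0 h, and in 9 genes the difference was less negative at 2 h than at 0 h. Il2ra belonged to both groups, with a difference of -2.40 at 0 h and -1.97 at 2 h. Hbb-b2, an adult beta-globin gene, went from -3.43 to -1.83, and S1pr1, a sphingosine-1-phosphate receptor that guides lymphocytes out of tissue, read -1.17 at both times. By contrast Trib1, a pseudokinase adaptor, was 0.73 above control at 0 h and fell by 1.97 within the Ikaros line. The 23 genes that started low had median differences of -1.17, -0.73 and 1.40 at 0, 6 and 18 h, and the remaining 68 had -0.15, -0.18 and 0.99. Against the 0 h level of the Ikaros line, 78 genes ended at least 0.6 higher at 24 h, a time the choice also used. The other 13 ended within 0.6 of their 0 h level, among them Tnfaip3, Nfkb2, Il17ra and Trib1.

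**Figure D2:**
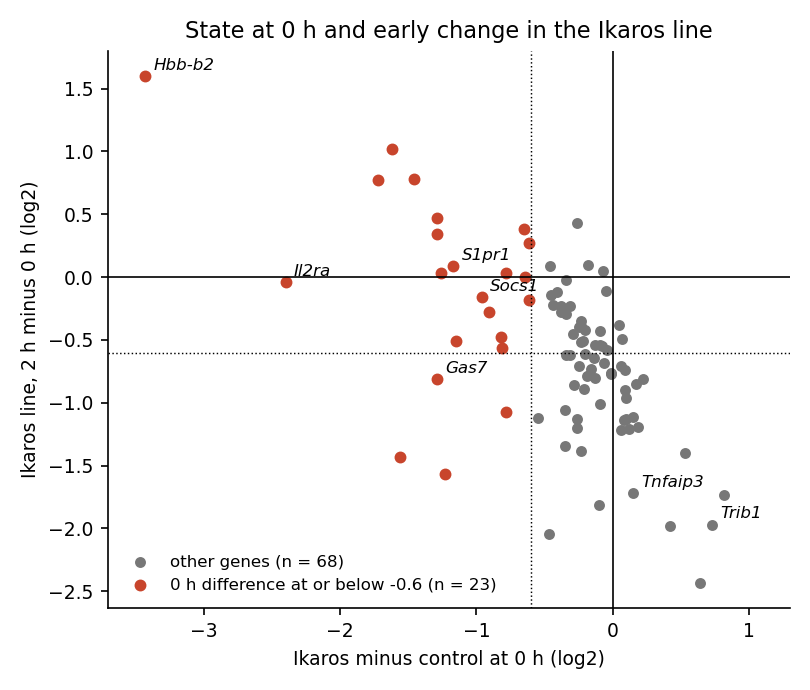
Change of the Ikaros line from 0 h to 2 h (log2, y axis) against the Ikaros minus control difference at 0 h (log2, x axis), one point per gene, with red points for the 23 genes at or below -0.6 at 0 h and grey points for the other 68. Both axes contain the 0 h values of the Ikaros line, so noise in these moves a point along a falling diagonal. Il2ra and Hbb-b2 lie far to the left with changes of -0.04 and 1.60, and Trib1 and Tnfaip3 lie at the lower right.

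At 0 h, 19 of the 91 genes were called lower in the Ikaros line and 0 higher (limma, Benjamini-Hochberg adjusted p under 0.05 over all genes). Over all 12762 genes 3.72% were called lower and 4.61% higher at that time. At an unadjusted p under 0.05 the counts were 28 lower and 2 higher, beside 19% of all genes in either direction. Without the first or the second replicate of each group the adjusted count was 9 or 7. All 3 batches put the gene lower in 50 of the 91, or 54.9%, beside 31.2% of all genes.

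At 6 h, 32 of the 91 genes were called lower, beside 19.2% of all genes, and 3 were called higher, beside 18.1%. The share lower, 35.2%, was below that of the 310 genes lower than control by at least 0.6 at both 2 h and 24 h. Of those 310, 80% were called lower at 6 h and 20.3% at 0 h, where the 91 had 20.9% at 0 h. The 310 were separated from the 91 by their 24 h values, so their share at 6 h is partly set by that choice. No test was run on that contrast of shares. The within-batch medians of the 91 genes at 6 h were -0.36, -0.38 and -0.25. At 12 h, 10 genes were called lower and 30 higher, beside 22.8% and 23% of all genes. These 40 genes were 44% of the 91, a share near the 45.8% of all genes called in either direction. Without the second replicate of each group the count at 12 h was 19.

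By 18 h the direction had turned. Of the 91 genes 75 were called higher, or 82.4%, beside 29% of all genes, and 1 was called lower, beside 29.2%. The gene called lower was Tnfaip3. The within-batch medians at 18 h were 0.92, 0.99 and 1.32, and 84 genes, or 92.3%, were higher in all 3 batches, beside 37.3% of all genes. The 3 Ikaros libraries lay above the 3 control libraries in 81 genes, beside 32.1% of all genes.

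Both calls together, lower at 6 h and higher at 18 h, were made in 27 of the 91 genes, or 29.7%, beside 1.15% of all genes. Besides genes described below they included Ankrd33b (-1.26 and 1.60), an ankyrin repeat protein, and Fetub (-1.45 and 2.03), a secreted cystatin-family protein already at -1.46 at 0 h. Kansl1l, a homologue of a histone acetyltransferase subunit, had -1.12 and 0.96. Stambpl1, a deubiquitinase, had -0.59 and 1.04, and Rps6ka2, a kinase downstream of ERK, had -0.59 and 1.03. The count was 17 when only the compared groups were fitted and 15 without the second replicate.

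The turn itself was tested between 6 h and 18 h, which the choice used only through the mean level. That level favoured genes high at 18 h. Pcdhb17 and Ighj3, for instance, lay near it with means of 9.54 and 9.72. Their Ikaros libraries at 18 h had means of 10.77 and 12.99. The Ikaros minus control difference increased in all 91 genes by 0.08 to 5.28, with a median of 1.33 beside 0.01 over all genes. The increase was called in 63 genes, beside 15.6% of all genes, and a decrease in 0, beside 15.7%. At an unadjusted p under 0.05, 71 increases and 0 decreases were counted, beside 41.5% of all genes in either direction. Within the Ikaros line 78 genes were called higher at 18 h than at 6 h, beside 22.3% of all genes, with a median change of 1.40. Within the control line limma called 0 of the 91 genes between these times, beside 0.58% of all genes, with a median change of -0.03. At an unadjusted p under 0.05 it had 14 of the 91, beside 15.4% of all genes. With the culture batch as a block the control line had 1 call, and without the third replicate of each group it had 3.

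Against the 0 h libraries, the difference changed by 6 h in 20 of the 91 genes, beside 15.9% of all genes, 14 of them downwards beside 8.14% of all genes and 6 upwards beside 7.72%. Without the second replicate of each group the count was 5. By 18 h the difference had increased in 72 genes, beside 22% of all genes, and decreased in 0, beside 21% and with 0 at an unadjusted p under 0.05. Without the second replicate this count was 46. The Ikaros line at 6 h was lower than at 0 h in 25 genes, beside 15.6%, and higher in 14, beside 17.1%. The control line at 6 h was lower than at 0 h in 1 gene, beside 2.52%, and higher in 3, beside 2.59%. With the culture batch as a block these control counts were 18 and 7.

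**Figure D3:**
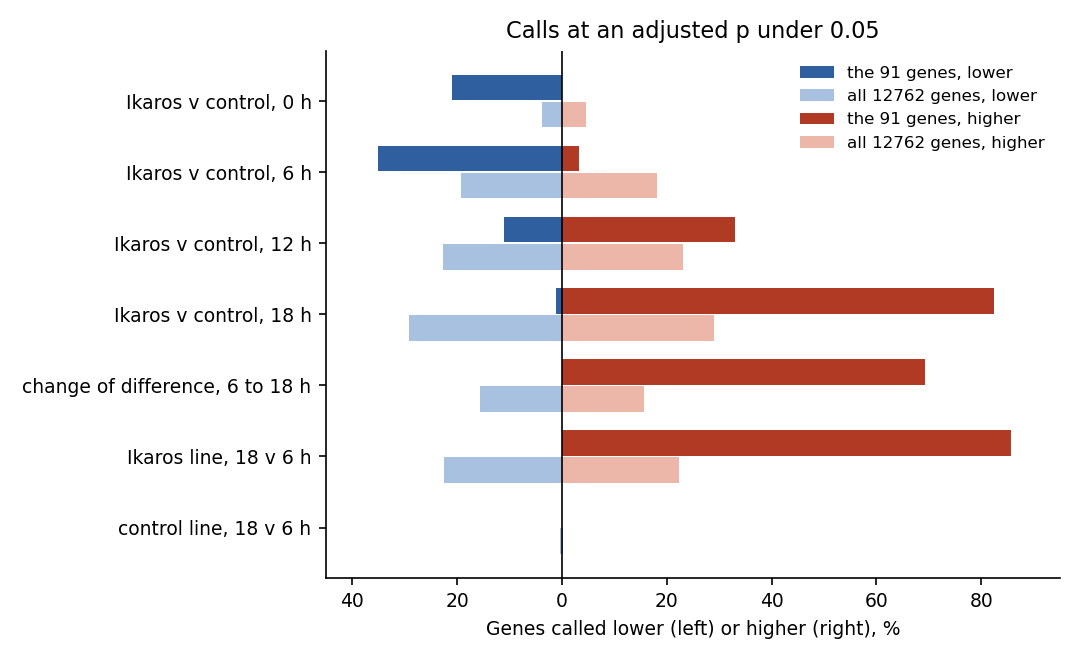
Share of genes called at an adjusted p under 0.05 (%, x axis, lower to the left and higher to the right of 0) in 7 comparisons (y axis), dark bars for the 91 genes and pale bars for all 12762 genes. The times compared were used to choose the genes only through the mean level. The 91 genes go from 35.2% lower at 6 h to 82.4% higher at 18 h, and the control line shows no call among them between these times.

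The genes did not turn at the same time. The difference stayed above 0 from 6 h on in 27 genes, from 12 h on in 34, from 18 h on in 29 and at 24 h alone in Tnfaip3. Zc3h12d, Epsti1, Pcyt1a, Slc28a2 and Filip1l were among the first group. Pik3ip1, Gas7, Zeb2, S1pr1, Pecam1 and both interferon regulatory factors were in the second. Il2ra, Sema4b, Socs1, Smad3, Tgif1, Nfkb2 and Trib1 were in the third. These times rest on the sign of group means, so a gene near 0, such as Zc3h12d at 6 h (0.04, adjusted p = 0.92, limma), could fall on either side.

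**Figure D4:**
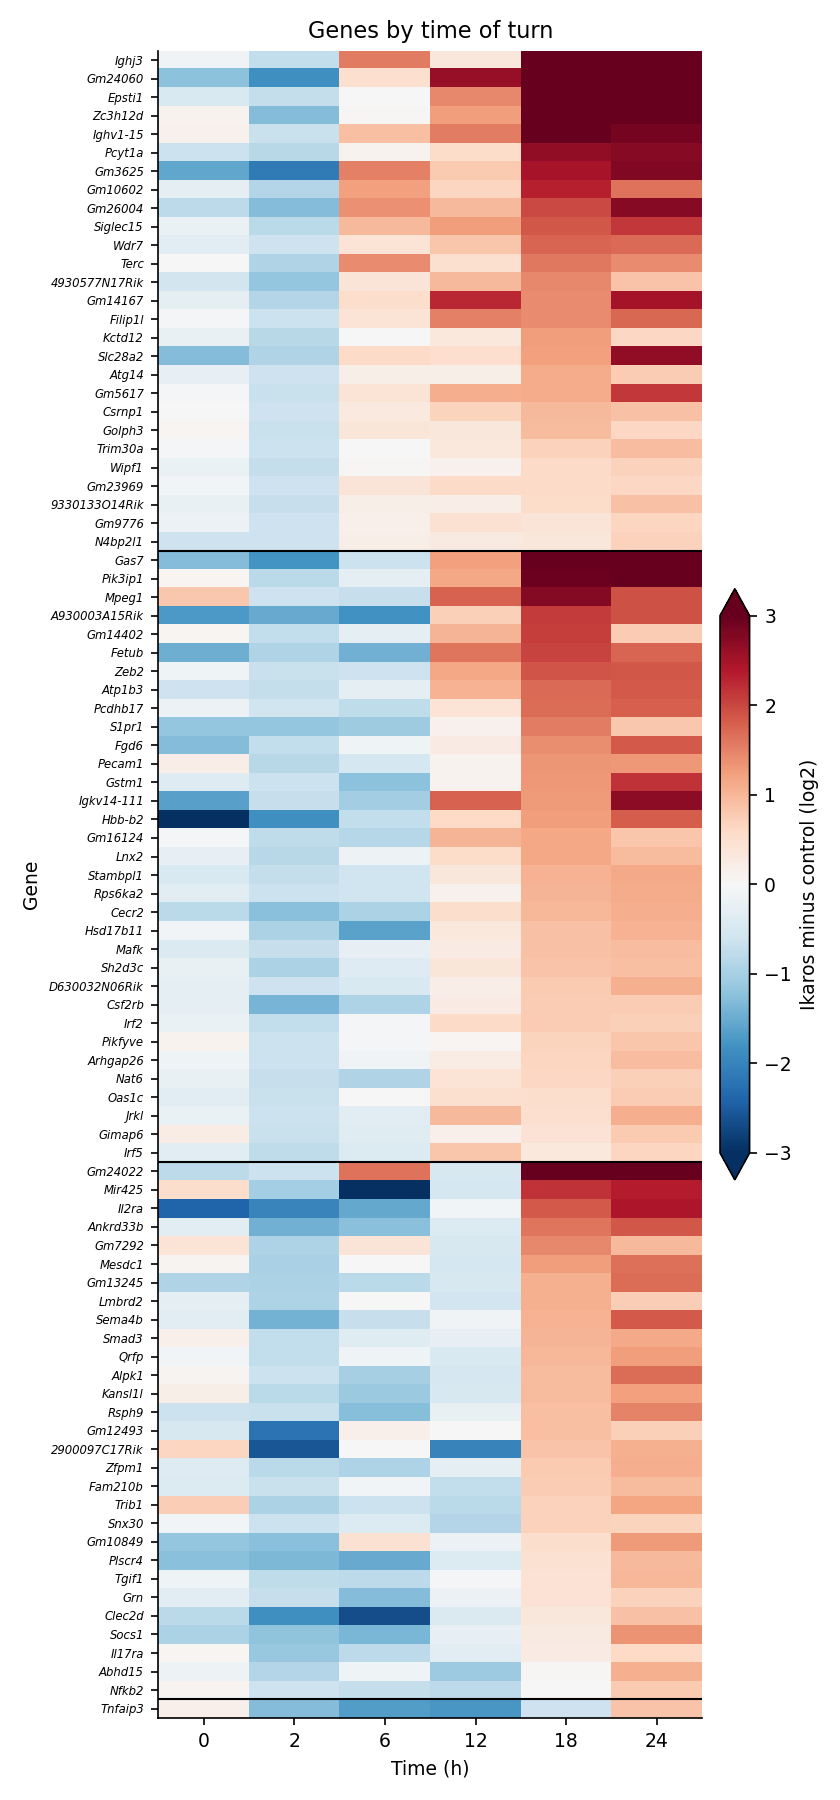
Ikaros minus control difference (log2, colour, blue below and red above 0) of 90 of the 91 genes (y axis) at 6 times (h, x axis), ordered by the time from which the difference stayed above 0 and then by the 18 h value, with black lines between the 4 groups of 27, 33, 29 and 1 genes. Colours stop at -3 and 3, and larger values take the end colour. Red reaches the 6 h column in the top group and only the last column in Tnfaip3.

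Receptors and surface proteins formed a first group by known role, grouped here after their values were seen. Il2ra (ENSMUSG00000026770, GRCm38 chr2:11642807-11693193, plus strand) encodes CD25, the alpha chain of the interleukin 2 receptor and a marker of small pre-B cells. In replicate order its control libraries read 12.00, 11.72 and 11.82 at 6 h and its Ikaros libraries 10.78, 10.12 and 10.05. At 18 h the control libraries read 12.55, 11.82 and 11.69 and the Ikaros libraries 14.24, 13.68 and 13.64. The groups did not overlap at either time and had changed places. The difference was -1.53 at 6 h (SE 0.25, limma adjusted p = 3.13e-05) and 1.83 at 18 h (adjusted p = 6.82e-07), and it rose by 3.36 between them (SE 0.36, adjusted p = 8.76e-08). All calls named for Il2ra held in every alternative fit. Il2ra was also 2.40 lower at 0 h (adjusted p = 1.33e-07).

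Sema4b, a transmembrane semaphorin, showed the shape more plainly. Its 2 h values, which the choice had used, were 12.16, 12.42 and 12.47 in control and 10.86, 11.10 and 10.85 in Ikaros libraries. At 6 h it read 12.29, 12.33 and 12.31 against 11.44, 11.77 and 11.62. At 18 h it read 12.21, 12.31 and 12.48 against 13.38, 13.44 and 13.34. The control libraries stayed between 12.16 and 12.48 at these times while the Ikaros line moved from below it to above it. The difference rose by 1.75 from 6 h to 18 h (SE 0.15, limma adjusted p = 3.02e-09). The small difference at 0 h (-0.35, adjusted p = 0.042) lost its call without each replicate in turn.

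Pecam1, the adhesion molecule CD31, had a difference of -0.53 at 6 h (limma adjusted p = 0.0509) and 1.32 at 18 h (adjusted p = 6.33e-06). S1pr1 went from -1.06 (adjusted p = 8.80e-04, not called without the second replicate or when only the compared groups were fitted) to 1.54 (adjusted p = 3.04e-06). Csf2rb, the beta chain shared by several myeloid cytokine receptors, went from -0.93 to 0.77, and both calls were lost without the second replicate. Il17ra, a cytokine receptor chain, was called lower at 6 h (-0.79, adjusted p = 2.61e-07) and at 12 h, and reached 0.24 at 18 h (adjusted p = 0.034, lost without the second or the third replicate). Clec2d, a lectin-like ligand of a natural killer cell receptor, had a difference of -2.65 at 6 h, among the largest of the 91, and 0.33 at 18 h, which was not called (adjusted p = 0.593). Its control libraries at 6 h spread from 11.06 to 13.38.

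Inhibitors of signalling were the next group. Pik3ip1 (ENSMUSG00000034614, chr11:3330401-3342971, plus strand) encodes a membrane protein that restrains PI3K. At 2 h its control libraries read 11.26, 11.10 and 11.41 and its Ikaros libraries 10.41, 10.44 and 10.45. At 6 h the Ikaros libraries read 10.75, 10.67 and 11.32 beside a control mean of 11.21 ± 0.26 (SD, n = 3), and the groups overlapped. At 18 h the Ikaros libraries read 13.95, 13.75 and 14.03, all above the control libraries, whose mean was 10.98 ± 0.12 (SD, n = 3). The difference at 6 h was -0.30 (limma adjusted p = 0.131), so the early dip was not called outside the 2 h libraries. At 12 h it was 1.15 (adjusted p = 8.15e-07), at 18 h 2.93 (adjusted p = 1.45e-14), and the change from 6 h to 18 h was 3.23 (SE 0.22, adjusted p = 4.93e-11).

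Socs1, a feedback inhibitor of cytokine signalling through JAK kinases, stayed low for longer. Its control libraries at 6 h read 11.33, 11.25 and 11.44, its Ikaros libraries 9.98, 10.27 and 9.66. At 18 h they read 10.83, 10.95 and 10.81 against 11.07, 11.21 and 11.13. The difference was -1.37 at 6 h (limma adjusted p = 3.70e-05) and 0.28 at 18 h, which was not called (adjusted p = 0.31), although the libraries did not overlap. The change between them was 1.64 (SE 0.32, adjusted p = 3.35e-04). At 12 h the third Ikaros library read 11.62 and the other two 10.65 and 10.25. Socs1 was also 0.96 lower at 0 h (adjusted p = 0.00688), a call lost without the first or the second replicate.

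Trib1 had differences of -0.64 at 6 h (limma adjusted p = 0.107), -0.81 at 12 h (adjusted p = 0.0334) and 0.70 at 18 h (adjusted p = 0.0539). Its change from 6 h to 18 h was called (1.34, SE 0.44, adjusted p = 0.0204), but not without the first or the second replicate. Zc3h12d (chr10:7832470-7870396), an RNA-binding protein of a family that lowers cytokine transcripts, had a difference of -1.29 at 2 h. It was level with control at 6 h and 3.52 above it at 18 h (adjusted p = 1.37e-12). Of 30 measured genes in a list for the PI3K and Foxo axis, Pik3ip1, S1pr1 and Trib1 were among the 91. At 6 h, 5 of that list were called lower and 13 higher, beside 19.2% and 18.1% of all genes. At 18 h the counts were 5 and 17, beside 29.2% and 29%. The list holds genes chosen on these samples, and so do the lists below.

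**Figure D5:**
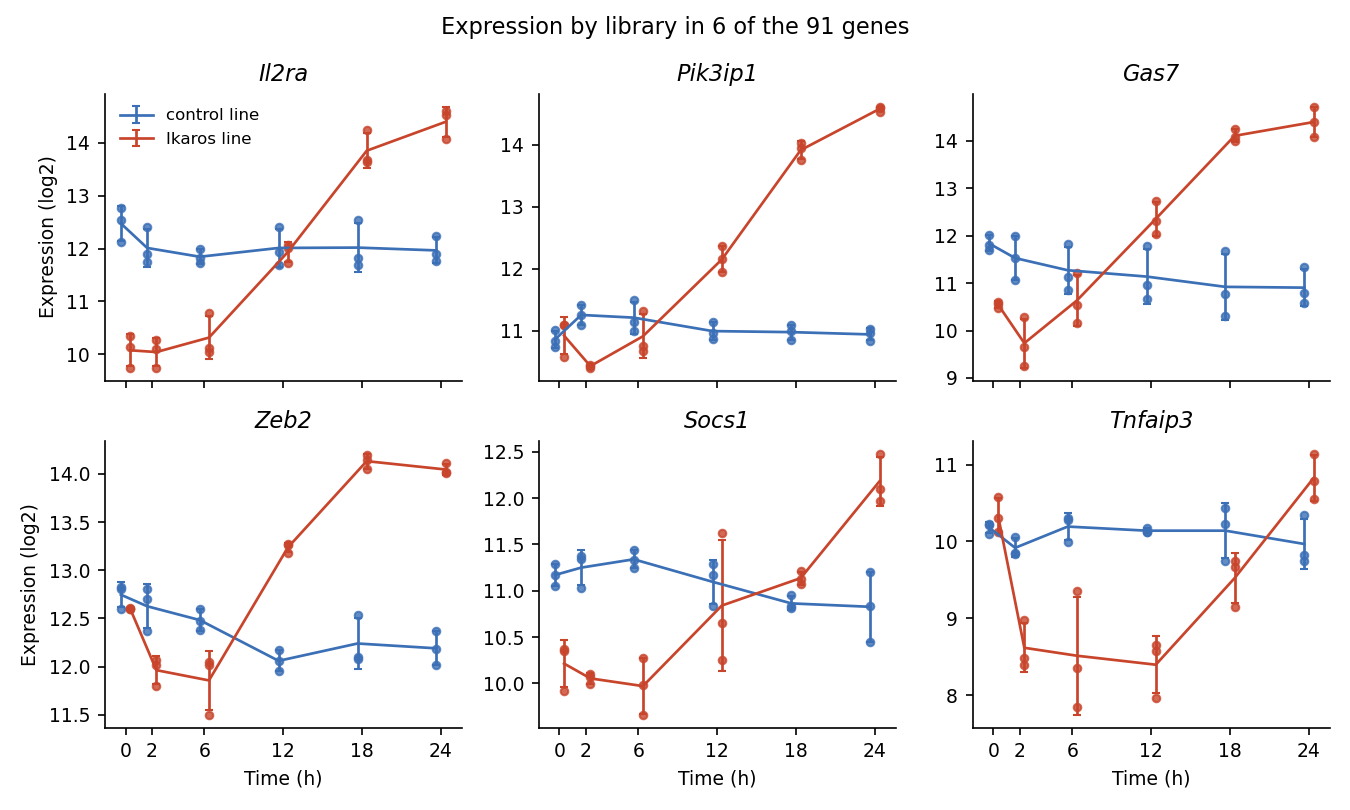
Expression (log2, y axes, each with its own range) against time (h, x axes) of 6 of the 91 genes, control line in blue and Ikaros line in red, with a point per library, lines through the means and bars of 1 SD (n = 3). Il2ra, Gas7 and Socs1 start below control at 0 h, Pik3ip1, Zeb2 and Tnfaip3 start near it, and Tnfaip3 is the last to recross.

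Genes of the NF-kB pathway came next, and Tnfaip3 was the last of the 91 to turn. Tnfaip3 (ENSMUSG00000019850, chr10:19000910-19015657, minus strand) encodes a ubiquitin-editing enzyme that shuts off NF-kB signalling. At 0 h its control libraries read 10.10, 10.22 and 10.23 and its Ikaros libraries 10.58, 10.31 and 10.12. At 6 h they read 10.28, 9.99 and 10.31 against 8.35, 7.84 and 9.35, and at 12 h 10.12, 10.18 and 10.12 against 8.57, 7.97 and 8.65. The Ikaros libraries were thus low from 2 h through 12 h. The difference was -1.68 at 6 h (limma adjusted p = 1.92e-05) and -1.75 at 12 h (adjusted p = 5.66e-06). It was -0.62 at 18 h (adjusted p = 0.0497), a call lost with the batch block and without each replicate in turn. At 24 h it was 0.86, with Ikaros libraries of 10.78, 11.14 and 10.55.

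Nfkb2, the precursor of an NF-kB subunit of the non-canonical pathway, moved in parallel but less. Its control libraries at 12 h read 12.26, 12.09 and 12.07 and its Ikaros libraries 11.39, 11.54 and 11.14. The difference was -0.72 at 6 h (limma adjusted p = 3.70e-05), -0.78 at 12 h (adjusted p = 6.23e-06) and 0.00 at 18 h (adjusted p = 0.99). Within the Ikaros line it fell by 1.18 from 0 h to 6 h (adjusted p = 2.19e-08) and rose by 0.93 from 6 h to 18 h (adjusted p = 6.45e-07). Among 26 measured genes of an NF-kB and TNF list, 7 were called lower and 5 higher at 6 h, beside 19.2% and 18.1% of all genes, and 7 lower and 11 higher at 18 h, beside 29.2% and 29%.

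Transcription factors of several families were among the 91. Zeb2 (ENSMUSG00000026872, chr2:44983632-45117395, minus strand), a zinc finger homeobox repressor, read 12.60, 12.47 and 12.38 in control and 12.02, 12.05 and 11.50 in Ikaros libraries at 6 h. At 12 h it read 12.17, 12.06 and 11.95 against 13.27, 13.26 and 13.18, so the order had turned within 6 h without overlap at either time. The difference was -0.63 at 6 h (limma adjusted p = 5.94e-04, lost when only the compared groups were fitted), 1.17 at 12 h (adjusted p = 6.57e-08) and 1.89 at 18 h (adjusted p = 4.55e-12). An antisense gene, Gm13476, overlaps Zeb2 and had differences of -0.04, 0.85 and 0.83 at those times.

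Smad3 and Tgif1, an effector and a repressor of TGF-beta signalling, were both in the third group by time of turn. Smad3 was at -0.36 at 6 h, which was not called, and at 1.02 at 18 h (limma adjusted p = 0.00101). Its change of 1.38 (adjusted p = 0.00379) was lost without the second replicate. Tgif1 was called lower at 6 h (-0.78, adjusted p = 8.21e-05) and higher at 18 h (0.43, adjusted p = 0.00938, lost without the third replicate). Zfpm1, a cofactor of GATA factors, went from -0.93 at 6 h (adjusted p = 3.03e-07) to 0.78 at 18 h (adjusted p = 1.12e-06). Mafk, a small Maf protein, went from -0.24, not called, to 0.89 (adjusted p = 0.00216), the latter lost without the second replicate. Of 31 measured B-lineage transcription factors in a list, 1, Zeb2, was among the 91. The list held 8 lower and 11 higher calls at 6 h, beside 19.2% and 18.1% of all genes. At 18 h it held 5 lower and 24 higher calls, beside 29.2% and 29%.

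Interferon-related genes were also among the 91, with the transcription factors Irf2 and Irf5. Irf5 was called lower at 6 h (-0.41, limma adjusted p = 1.77e-04, lost when only the compared groups were fitted) and higher at 12 h (0.84, adjusted p = 2.01e-09). It was highest at 12 h and read 0.32 at 18 h (adjusted p = 0.00114). Irf2 read -0.06 at 6 h and 0.76 at 18 h (adjusted p = 0.00489, lost without the second replicate). Its change between the times (0.82, adjusted p = 0.0483) was lost in 6 of the alternative fits. Epsti1 (ENSMUSG00000022014, chr14:77904239-78002657, plus strand), an interferon-induced gene, had the widest swing of the 91. Its control libraries at 18 h read 9.31, 9.19 and 9.04 and its Ikaros libraries 13.42, 13.19 and 13.04, a difference of 4.04 (adjusted p = 2.96e-15). At 6 h the difference was 0.02 (adjusted p = 0.94), and the Ikaros line had not fallen from 0 h to 2 h.

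Oas1c, of the oligoadenylate synthetase family, and Trim30a, a tripartite motif protein, had differences of -0.01 and 0.02 at 6 h, neither called, and of 0.53 and 0.68 at 18 h, both called (limma adjusted p = 6.58e-04 and 8.12e-06). Both have close paralogs, so their reads could be shared. In a list of 28 measured interferon response genes, 4 were called lower and 12 higher at 6 h, beside 19.2% and 18.1% of all genes, and 5 lower and 17 higher at 18 h, beside 29.2% and 29%. Irf2 and Irf5 were its members among the 91.

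Cytoskeletal and membrane genes made up a further group. Gas7 (ENSMUSG00000033066, chr11:67455437-67688990, plus strand), an actin-binding adaptor, read 11.82, 11.13 and 10.86 in control and 11.22, 10.15 and 10.53 in Ikaros libraries at 6 h. At 18 h it read 11.68, 10.77 and 10.31 against 14.25, 13.99 and 14.07. The libraries overlapped at the first time and not at the second, and the change of difference was 3.82 (SE 0.49, limma adjusted p = 1.27e-06). At 0 h it was already 1.29 lower (adjusted p = 0.0164), a call lost without the second or the third replicate. Wipf1, a partner of the WASP actin regulator, read 0.04 at 6 h and 0.57 at 18 h (adjusted p = 0.0248, lost without the first or the second replicate). Arhgap26, a GTPase-activating protein, read -0.10 and 0.65 (adjusted p = 0.0065, lost without the second replicate). Of 42 measured actin genes in a list 1, Wipf1, was among the 91, and of 51 measured small GTPase genes 1, Arhgap26.

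Among metabolic and transport genes, Pcyt1a, which makes the activated choline for phosphatidylcholine, had a difference of 0.10 at 6 h and 2.67 at 18 h (limma adjusted p = 1.91e-10). Atp1b3, a beta subunit of the sodium pump, was at -0.30 and then 1.70 (adjusted p = 4.75e-10). Gstm1, a glutathione transferase, was called lower at 6 h (-1.24, adjusted p = 2.28e-06) and higher at 18 h (1.31, adjusted p = 2.35e-07). Hsd17b11, a short-chain dehydrogenase, likewise went from -1.60 (adjusted p = 1.75e-10) to 0.89 (adjusted p = 9.31e-07), and it was level with control at 0 h (-0.09, adjusted p = 0.808). Grn, which encodes progranulin, went from -1.29 (adjusted p = 1.29e-09) to 0.43 (adjusted p = 0.00196, lost without the second replicate). Cecr2, a bromodomain protein of chromatin remodelling complexes, went from -0.94 (adjusted p = 2.37e-06) to 1.00 (adjusted p = 2.54e-07) after a difference of -0.82 at 0 h (adjusted p = 7.30e-05). Slc28a2, a nucleoside carrier, was instead called lower at 0 h (-1.29, adjusted p = 2.23e-05) and higher at 6 h (0.58, adjusted p = 0.0166). The 6 h call of Slc28a2 was lost without the first or the second replicate.

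Hbb-b2 (ENSMUSG00000073940, chr7:103812524-103813996, minus strand) belongs to the erythroid marker list. Its Ikaros libraries read 8.44, 9.28 and 10.30 at 0 h and 14.30, 14.35 and 14.27 at 24 h, while its control libraries lay between 11.88 and 13.25 throughout. Of 11 erythroid markers, 4 were measured, and Gata1 and Alas2 were not among the table's genes. The log2 of the summed marker level was 12.48 to 12.86 over the control groups and 9.97 to 14.34 over the Ikaros groups. The other measured markers Hbb-b1, Klf1 and Epor had mean levels of 5.70, 7.89 and 6.19. The difference of Hbb-b2 was 1.25 at 18 h (limma adjusted p = 0.00399), a call lost without the second replicate. Near-identical globin copies could share its reads, and the part of erythroid transcripts was not tested.

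By annotation, 67 of the 91 genes were protein-coding, or 73.6%, beside 93.3% of the genes that passed the level. The other 24 included 5 antisense genes, 2 miRNA gene models, Terc, the RNA of telomerase, and 2 immunoglobulin segments, Ighj3 being a joining segment, while 5 genes were not found in GENCODE release 21. No genome positions or coding class are given for those 5, among them the immunoglobulin segment Ighv1-15 and Kctd12. The spread within groups had a median SD of 0.613 in these 24 genes, beside 0.255 for the protein-coding genes of the 91. Over all genes that passed the level the medians were 0.446 and 0.182. At 6 h, 29 of the 67 protein-coding genes were called lower and 1 higher, against 3 lower and 2 higher of the 24 others. The increase from 6 h to 18 h was called in 55 of 67 and in 8 of 24. Shares called over all genes of each class are not given here, so whether this contrast is particular to the 91 cannot be told. The classes differed in spread as well as in calls, and the part of the spread was not tested.

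Mir425 shows how wide this spread could be. Its Ikaros libraries read 8.77, 8.36 and 6.15 at 6 h and 11.16, 10.67 and 10.65 at 18 h, and its control libraries 11.37, 11.22 and 10.05 and then 9.75, 9.33 and 6.91. The change of difference was the largest of the 91 (5.28, SE 0.98, limma adjusted p = 1.72e-04). These are reads on the hairpin gene in a library of long RNA and not a measure of the mature miRNA. The 3 genes called higher at 6 h were Gm24022, a miRNA gene model (1.63), Terc (1.41) and Slc28a2 (0.58), and each of these calls was lost when only the compared groups were fitted. Ighv1-15 read 16.79, 15.68 and 15.11 in control and 19.13, 18.89 and 19.16 in Ikaros libraries at 18 h. The small RNA gene models Gm24060, Gm26004 and Gm23969 lie inside Cyth1, Lbr and Rpl7a on the same strand, and reads of the host could be counted for them. Irf5, Nfkb2, Filip1l and Abhd15 overlap genes on the opposite strand, and the strand setting of the counting was not given in the sources used here.

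Length and base composition were compared for the protein-coding members. Their median exon length was 4334 bases beside 4600 for all protein-coding genes that passed the level, and the median GC content of the longest transcript was 49.99% beside 49.45%. Their median level was 11.6 beside 12.5. No test was run on these medians.

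When the choice was repeated on 2 replicates of each group and read in the third, 96, 92 and 86 genes met it without replicates 1, 2 and 3 in turn. Of these, 74, 73 and 70 were among the 91. In the replicate left out, 83, 80 and 80 genes kept both signs, with medians of -0.62, -0.75 and -0.73 at 2 h and 1.48, 1.06 and 1.27 at 24 h. The remaining genes had the opposite sign at 2 h or at 24 h in that replicate. The replicate left out came from the same lines and was normalized with the others, so it is not an independent repeat. The share of all genes with such signs is not given here. The mirrored rule, higher at 2 h and lower at 24 h, was met by 74 genes. Of these, 47.3% were called higher at 6 h and 62.2% lower at 18 h, beside 18.1% and 29.2% of all genes. Genes lower at 2 h and between the thresholds at 24 h were called lower at 6 h in 58.9% and higher at 18 h in 9.19%, where the 91 genes had 35.2% and 82.4%. These sets were separated by their 24 h values, so the contrast at nearby times is partly set by the choice and was not tested.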

How the data were processed

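Messenger RNA of the B3 control and Ikaros lines was sequenced in 36 strand-specific libraries, 3 for each line and time. The authors aligned reads to mm10 with TopHat2, counted genes with HTSeq, normalized for GC content and length with cqn and adjusted for library preparation with ComBat. The deposited values are on a log2 scale, and the lowest of the table is 1.0. The base is not stated in the table and was taken as 2. The methods give an intended depth, but the depth each library reached cannot be read from the normalized values and was not analysed here. Precision thus rests on 3 libraries per group. The p-values set a difference against the spread between libraries within groups, pooled over all 12 groups and moderated over genes.

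A mean was fitted for each of the 12 groups with limma 3.58.1 in R 4.3.3, without a block. The two-sided p-values of all 12762 genes were adjusted after Benjamini and Hochberg. A gene was called under 0.05. The genes, gene lists and tests were chosen with earlier results of these data known. Genes were named by the size of the swing from 2 h to 24 h, membership of a role list, nearness to a threshold and extreme differences at 0, 6, 12 and 18 h, and the others for their known role after their values were seen. The fit was tested on simulated data. The values of 1 of the 91 genes are not reported here, but all counts include it.

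The labels give control and Ikaros cultures of a batch the same number, namely batches 1, 2 and 4 at 0 h and 1, 3 and 4 later. These numbers pair the libraries. Deviations from the group means correlated by -0.062 to 0.507 over 18 pairs, with 12 above 0.1. Alternatives were the batch block, an expression filter, quantile normalization, median centring, a trended and robust prior, a fit of the compared groups alone and leaving out each replicate in turn. Positions came from GENCODE release 21 (GRCm38) for 86 of the 91 genes, promoters from RefSeq. Genome and protein sequences were not used here.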

Additional observations from a re-analysis of the deposited data

Results flagged for a closer look

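The Ikaros minus control difference changed with time in many of the 91 genes, which was tested as a change of the difference between the lines. From 6 h to 18 h the change was called in 63 genes, all upwards (limma, adjusted p under 0.05). Over all genes 15.6% were called upwards and 15.7% downwards. From 0 h to 6 h it was called in 20 genes, a count that was 8 without the first replicate and 5 without the second. Of the 20, 14 went downwards, or 15.4% of the 91, beside 8.14% of all genes. The 6 upwards, or 6.59%, were near the 7.72% of all genes. From 0 h to 18 h it was called in 72 genes, all upwards, beside 22% of all genes upwards and 21% downwards. The 6 h and 18 h libraries of a batch share a thawed culture with the 2 h and 24 h libraries on which the genes were chosen.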

How the results depend on the processing

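No call among the 233 gene calls at 0, 6, 12 and 18 h and for the change from 6 h to 18 h changed direction in any alternative, and 136 held in all of them. The batch block, the expression filter, quantile normalization, median centring and the trend and robust settings lost at most 1 of the 233 calls each, fits of only the compared groups lost 41, and fits without replicates 1, 2 and 3 lost 45, 84 and 24. Without a replicate the count of called genes was 7 to 21 at 0 h, 15 to 27 for both calls lower at 6 h and higher at 18 h, 19 to 37 at 12 h, 5 to 21 for the change from 0 h to 6 h, 46 to 67 for the change from 0 h to 18 h and 24 to 39 for the Ikaros line from 0 h to 6 h. For the control line it was 0 to 3 from 6 h to 18 h and 0 to 1 from 0 h to 6 h. The replicate block, fitted with the paired batches, gave the control line 1 call from 6 h to 18 h and 25 from 0 h to 6 h, and the fit of only the compared groups gave 0 for the latter and 17 for both calls at 6 h and 18 h. The alternatives for both calls together were chosen after seeing the data. The block moved no other count by over 1.5 times. Shares of all genes called with the block are not given here. The cause of these differences was not tested, beyond the smaller number of libraries in the fits that leave some out. Thresholds of 0.8 left 39 genes, a mean level of at least 11 left 58, and no minimum level gave 317. Read depth per library was not analysed here, which limits the reading of low-level and non-coding genes.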
